A study of Mus musculus with 92 samples.

Results

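The interferon-inducible GTPases and regulators followed here are 8 genes, Gvin1, Gm43302, Gbp7, Irgm1, Igtp, Stat2, Irf7 and Ifit3, taken by name from a table of 13441 genes. All 8 were in the table. The genes were chosen from earlier results of these data: Gvin1 and Gm43302 because their values divide the animals into separate sets, and the group because its levels were thought to rise and fall together. Those distributions and the correlations between the 8 genes are therefore given as descriptions, with no test. RNA was taken from the quadriceps, a large thigh muscle, of 92 DOz mice, an outbred stock whose animals are all genetically different. All mice had been fed standard chow all their lives and were about 18 to 20 weeks old. There was 1 group and no treatment, so what can be compared is the animals with each other. The study asked how muscle ceramides with very long chains, which the enzyme encoded by Cers2 makes, relate to insulin resistance.

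Interferons are secreted proteins that warn cells of infection. Type I interferon acts through a complex that holds Stat2 and Irf9 and binds the interferon-stimulated response element (ISRE), and interferon gamma acts through the gamma-activated site (GAS). Many of the genes switched on in this way encode GTPases. Guanylate-binding proteins (Gbp), immunity-related GTPases (such as Igtp and Irgm1) and the very large inducible GTPases (Gvin) gather on the vacuoles of intracellular microbes or regulate that process. Muscle fibres, blood vessels and resident macrophages can all respond to interferon, and bulk muscle RNA mixes them. A lower value can mean fewer cells of a type or less RNA per cell, which cannot be told apart here.

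Values are log2 expression on a scale that, judged from the sums, came close to log2 CPM, and they are called log2 units below. The sum of a sample's values on the linear scale lay between 898071 and 1140761. The depth of the libraries is unknown, and precision comes only from the spread between animals. The 9 muscle fibre markers on a list (Acta1, Ckm and others) were all in the table and summed to a log2 level of 16.81 to 17.69, as the tissue label says. All 10 macrophage markers were present, summing to 5.68 in the lowest animal, 6.86 at the median and 9.55 in the highest. All 8 endothelial markers were present, at 7.54 to 8.70. Of 19 T and NK cell markers none was among the genes analysed, and of 6 plasmacytoid dendritic and B cell markers only Siglech was.

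The sequences near the start of these genes show the elements named above. Promoters of 300 bases, 250 before and 50 after the gene's start, were available for 6 of the 8 genes from RefSeq (build GRCm38.p6). They were searched on both strands for the ISRE core, GAAANNGAAA, and for the GAS, TTCNNNGAA. The promoters of the 4 members below are printed 5′ to 3′ along the gene's own strand because they show the elements alone and side by side, with the matches in capitals. They lie at chr11:58199306-58199605 (+) for Igtp, chr3:142530086-142530385 (+) for Gbp7, chr11:48871371-48871670 (-) for Irgm1 and chr19:34583279-34583578 (+) for Ifit3.
Igtp: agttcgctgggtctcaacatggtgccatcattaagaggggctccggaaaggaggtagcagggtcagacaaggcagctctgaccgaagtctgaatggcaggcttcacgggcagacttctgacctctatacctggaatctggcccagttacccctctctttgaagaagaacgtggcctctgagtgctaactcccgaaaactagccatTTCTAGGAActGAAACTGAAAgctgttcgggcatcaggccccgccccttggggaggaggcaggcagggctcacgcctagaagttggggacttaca
Gbp7: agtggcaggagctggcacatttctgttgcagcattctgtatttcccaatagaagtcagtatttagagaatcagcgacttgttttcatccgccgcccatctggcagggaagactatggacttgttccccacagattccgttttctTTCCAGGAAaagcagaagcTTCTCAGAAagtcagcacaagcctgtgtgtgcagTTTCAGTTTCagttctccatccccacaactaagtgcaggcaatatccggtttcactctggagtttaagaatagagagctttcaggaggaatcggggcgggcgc
Irgm1: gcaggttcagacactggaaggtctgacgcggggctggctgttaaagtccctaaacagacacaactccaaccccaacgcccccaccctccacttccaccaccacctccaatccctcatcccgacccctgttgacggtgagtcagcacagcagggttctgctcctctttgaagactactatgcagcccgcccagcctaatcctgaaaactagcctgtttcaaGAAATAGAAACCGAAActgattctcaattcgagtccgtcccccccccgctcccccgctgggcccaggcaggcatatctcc
Ifit3: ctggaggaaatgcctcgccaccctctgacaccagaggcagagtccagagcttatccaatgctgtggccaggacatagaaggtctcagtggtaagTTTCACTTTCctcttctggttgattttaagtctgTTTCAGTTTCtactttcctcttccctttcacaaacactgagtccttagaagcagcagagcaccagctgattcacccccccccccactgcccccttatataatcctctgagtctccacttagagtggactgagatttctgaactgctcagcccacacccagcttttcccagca
In Igtp a GAS begins at base -45 from the start and an ISRE core at -34. Gbp7 holds a GAS at -106 and another at -87, and an ISRE core at -53. Irgm1 has ISRE cores at -30 and -24, which overlap each other, and no GAS in this window. Ifit3 has 2 ISRE cores, both on the opposite strand to the gene and farther from the start, the first at -156, and no GAS. No ISRE match overlapped a GAS match. Stat2 had an ISRE core at -222, and the window of Irf7 held neither set of letters.

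Across all 32851 RefSeq promoters of this length, 3.44% held the ISRE core and 8.30% the GAS. Among genes of the table with a promoter, 362 of 10115 (3.58%) held the ISRE core. Of the other interferon-inducible GTPases on a list, 7 of 9 (77.8%) held it, and of the interferon-stimulated genes 10 of 28 (35.7%). Of the antigen presentation genes 4 of 15 (26.7%) held it, and of the receptor and signalling genes 2 of 22 (9.09%). The GAS was present in 5 of 9 of the GTPases (55.6%), 7 of 28 interferon-stimulated genes (25%), 2 of 15 antigen presentation genes (13.3%) and 7 of 22 signalling genes (31.8%), against 8.23% of genes of the table. These are matches of letters and not measured binding.

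Gvin1 (very large interferon-inducible GTPase 1, ENSMUSG00000045868) lies on the minus strand at chr7:106156556-106215326 in GRCm38. Its values over the 92 animals ran from -3.86 through a median of 2.10 to 4.68 log2 units. The animals fell into 2 sets with a step of 3.75 between them and no animal inside it. With a pseudocount of 1 the step was 0.96, under the limit of 1 used to call a split. In the lower set, 15 animals lay between -3.86 and -3.60, and 11 of them were at or below -3.8, where the table lists genes with almost no signal. In the upper set, 77 animals had a lowest value of 0.15, a median of 2.49 and a highest value of 4.68. The sets did not overlap, and the upper set itself had an SD of 1.0. The animals just inside the lower set and just outside it stood at -3.60 and 0.15. The numbers in the sample titles form 5 runs with gaps of over 30 between them, treated as a possible batch. The lower set held 2 of 33, 3 of 14, 6 of 21, 2 of 11 and 2 of 13 animals of these runs, so it was present in every run.

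Gm43302 (ENSMUSG00000079362) is a gene model within the Gbp cluster on the minus strand of chromosome 5, at chr5:105214907-105293695. Its values ran from -3.86 through a median of 2.24 to 6.35 log2 units. Exactly 5 animals were listed at -3.86, and the next animal stood at -1.13, a step of 2.73, which was 0.45 with a pseudocount of 1. The remaining 87 had a median of 2.32 and an SD of 1.55, the widest spread of any member outside a lower set. A normal mixture placed 12 animals around 0.42, 53 around 1.96 and 27 around 4.32. The component around 0.42 is broad and does not mark off the 5 animals at the floor. The lower sets of Gvin1 (15 animals) and Gm43302 (5 animals) had 0 animals in common. Only 0.074% of genes had a larger SD than Gvin1 and 0.141% a larger SD than Gm43302.

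**Figure D1:**
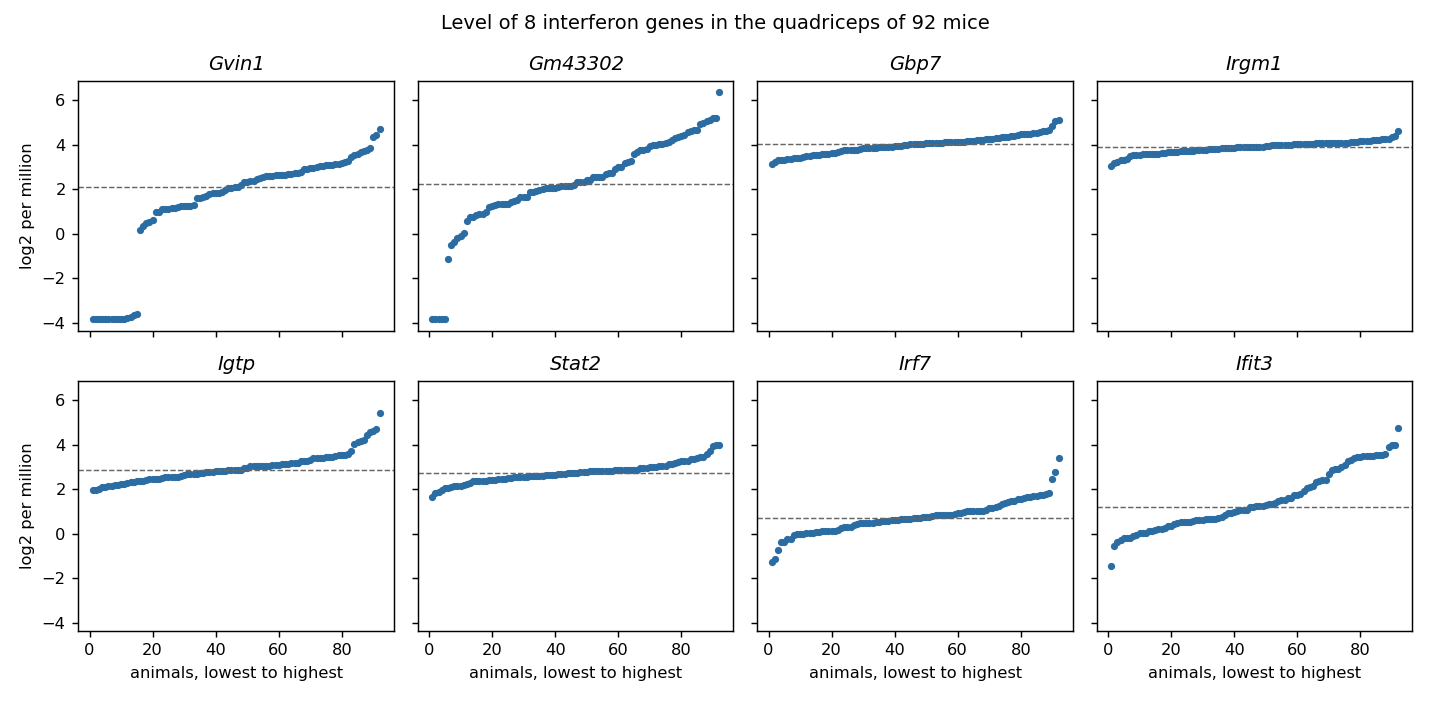
Level of each of the 8 genes in log2 units (vertical axis) in 92 mice sorted from lowest to highest for that gene (horizontal axis, rank). Each point is a mouse and the dashed line is the median. Gvin1 shows 15 animals on a shelf at -3.60 or lower and Gm43302 shows 5, whereas Gbp7 and Irgm1 stay within a narrow band and Igtp, Irf7 and Ifit3 have a raised upper end.

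The letters of Gvin1 bear on how its values can be read. In GENCODE M21, 8974 of the 9005 stretches of 31 bases (31-mers) in Gvin1 transcripts also occur in transcripts of other genes (99.66%). Gm4070, a near copy on the same chromosome, alone shares 8912 of them (98.97%), and Gm4070 is not among the genes of the table. The 8795-base Gvin1 transcript differs from that of Gm4070 at 3 places, all in the coding sequence, which spans bases 91 to 7374. Counted from 1 at the transcript's 5′ end, with the base of Gvin1 written before the position and that of Gm4070 after it, they are G1895T, G4994A and C7165T. They fall in codons 602, 1635 and 2359. The pairs below give 61 bases around the first and the last of these, with the differing base in capitals. The Gvin1 windows lie at chr7:106163426-106163486 and chr7:106158156-106158216, both on the minus strand.
Gvin1 around G1895T: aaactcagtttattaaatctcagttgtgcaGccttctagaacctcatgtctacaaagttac
Gm4070 around G1895T: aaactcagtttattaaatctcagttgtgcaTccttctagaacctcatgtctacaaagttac
Gvin1 around C7165T: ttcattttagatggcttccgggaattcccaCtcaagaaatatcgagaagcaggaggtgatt
Gm4070 around C7165T: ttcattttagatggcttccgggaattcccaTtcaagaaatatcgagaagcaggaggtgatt
The 31 31-mers found in no other gene all span C7165T. Programs that assign reads by short matches, such as kallisto, which the submitters' processing notes name, cannot tell most reads of the copies apart. Which transcripts the authors' index held is not given in the sources used here, so the value of Gvin1 may include reads of its copy.

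Gm43302 shares all of its sequence with its neighbours. Each of its 4280 31-mers occurs in transcripts of another gene, 95.65% in Gbp6 and 68.86% in Gbp10, whose gene bodies it overlaps on the same strand. Gbp10 followed Gm43302 across the 87 animals outside the lower set, with Spearman's rho of 0.862 and Pearson's r of 0.869. Gbp10 ran from -3.93 through 1.91 to 6.98 log2 units and stood between -3.93 and 1.42 in the 5 animals where Gm43302 was lowest. Gbp6 did not follow it, with a rho of -0.05 and values of 0.96 to 5.03 in those 5 animals. Gbp4 and Gbp9, next along the chromosome, gave rho of 0.185 and 0.081. When Gm43302, Gbp10 and Gbp6 were added on the linear scale, the sum ran from 1.21 through 4.31 to 7.73 with an SD of 1.11. Since Gbp6 was well above the floor in the 5 low animals, that sum had to lie above it too, and it says nothing of the split. The sum with Gbp10 alone also had 5 animals below a step of at least 1, of which 4 were among the 5 of Gm43302.

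**Figure D2:**
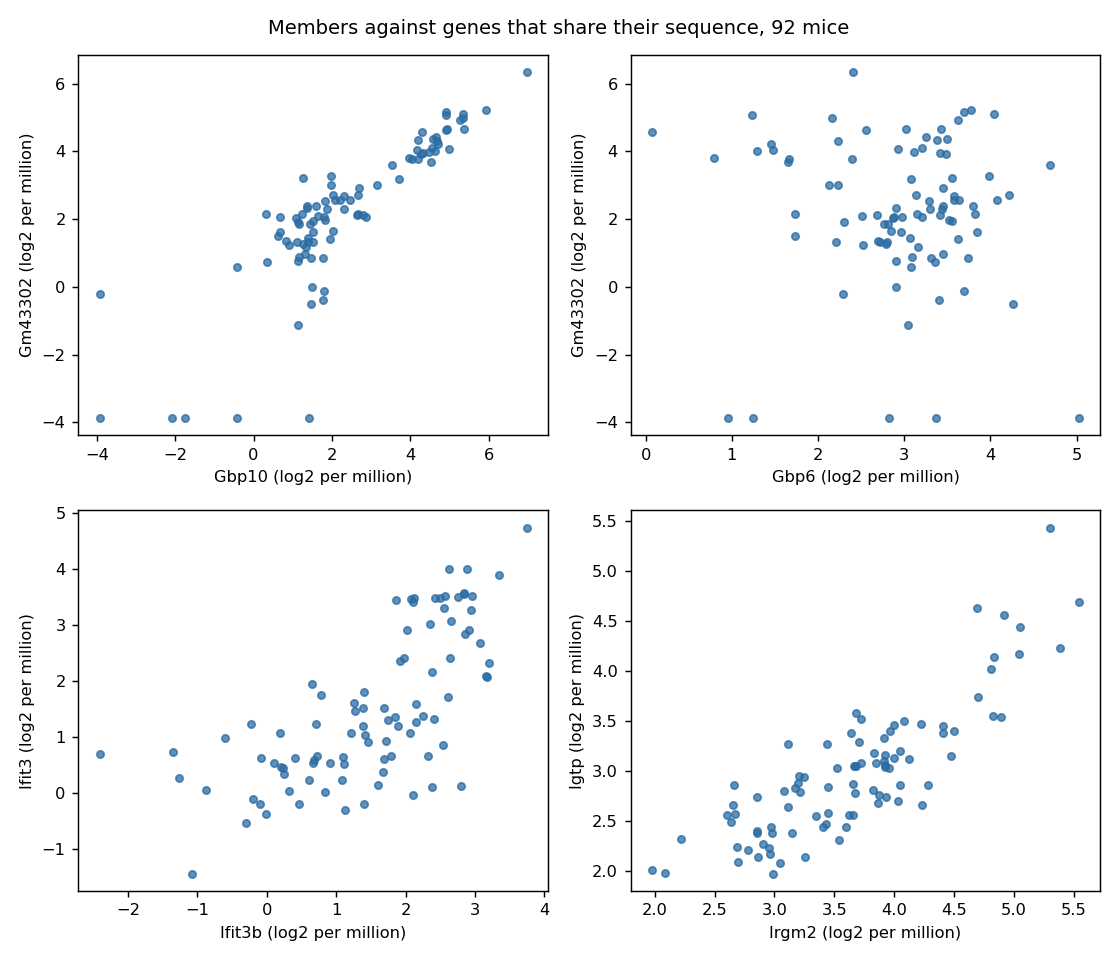
Members against genes that share their sequence, in log2 units on both axes, with each point a mouse (n = 92). Gm43302 climbs with Gbp10 and not with Gbp6, Ifit3 climbs with Ifit3b (rho 0.722) and Igtp with Irgm2 (rho 0.812).

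The other 3 GTPases were present in every animal. Igtp (ENSMUSG00000078853, chr11:58199556-58207591, plus strand), an immunity-related GTPase of the regulatory class, ran from 1.97 through 2.86 to 5.43 log2 units. The distribution had a raised tail: 9 animals lay more than 1 above the median, and a normal mixture put 83 animals around 2.82 and 9 around 4.37. The highest animal stood 0.74 above the next. Irgm1 (ENSMUSG00000046879, chr11:48861968-48871683, minus strand), which restrains the other immunity-related GTPases, ran from 3.04 through 3.91 to 4.60. It was the steadiest of the 8, with an SD of 0.28 that 59.2% of genes exceeded. Gbp7 (ENSMUSG00000040253, chr3:142530342-142550149, plus strand), a guanylate-binding protein, ran from 3.14 through 4.02 to 5.09, with an SD of 0.41 that 36.2% of genes exceeded. The highest animal thus had 11 times the Igtp of the lowest, 3.88 times the Gbp7 and 2.95 times the Irgm1.

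Igtp shared 326 of its 2045 31-mers (15.94%) with Irgm2, whose gene body overlaps it on the same strand. Gbp7 shared 14.7% with other genes, mostly with the pseudogene Gm43802, and Irgm1 2.88%. Irgm2 followed Igtp with r of 0.845 and rho of 0.812 (n = 92). Whether reads of the shared sequence were divided between them was not tested. Because of that sequence, the values of Igtp and Irgm2 were also summed, and the sum had an SD of 0.69.

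The 2 transcription factors differed in level and spread. Stat2 (ENSMUSG00000040033, chr10:128270559-128292849, plus strand), the subunit that gives the type I complex its activating domain, ran from 1.66 through 2.71 to 3.98 log2 units, a 4.98-fold range. Irf7 (ENSMUSG00000025498, chr7:141262706-141266481, minus strand), which amplifies type I interferon production, ran from -1.27 through 0.69 to 3.38, a 25-fold range. In 9 animals Irf7 was more than 1 above the median, and the highest animal stood 0.62 above the next. Both had little sequence in common with other genes, with 1.89% of the 31-mers of Stat2 and 0.36% of those of Irf7 found elsewhere. The end of Irf7 overlaps Phrf1 on the opposite strand.

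Ifit3 (ENSMUSG00000074896, chr19:34583531-34588731, plus strand), an antiviral tetratricopeptide protein and a classic target of the type I complex, varied most among the members without a gap. It ran from -1.45 through 1.21 to 4.74, a 72.6-fold range, and 27 animals lay more than 1 above the median. Only 1.04% of genes had a larger SD. A mixture of 3 normal components placed 50 animals around 0.57, 31 around 1.89 and 11 around 3.49, but the largest step with 5 or more animals on each side was 0.27. Ifit3 shared 61.81% of its 31-mers with the neighbouring copy Ifit3b, which followed it with r of 0.693 and rho of 0.722. Ifit3 and Ifit3b added together still had an SD of 1.17.

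Levels were compared between genes per kilobase of exon. On that log2 scale Igtp stood highest at 1.96, followed by Gbp7 at 1.50, Irgm1 at 1.34, Ifit3 at 0.68, Stat2 at 0.18, Gm43302 at 0.13, Irf7 at -1.18 and Gvin1 at -1.85 (means, n = 92). Every neighbouring pair in this order differed by less than the larger of its SDs over animals, and 3 pairs (Gbp7 and Irgm1, Stat2 and Gm43302, Irf7 and Gvin1) by less than either SD. The mean of Gvin1 includes the 15 animals on the shelf, and its median was -1.08, above the median of -1.23 for Irf7.

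None of the 8 genes differed between the 5 runs of title numbers, which held 33, 14, 21, 11 and 13 animals and whose meaning the labels do not give. In a limma F test with Benjamini-Hochberg adjustment over 13441 genes, their adjusted p-values lay between 0.773 and 0.975. The smallest unadjusted p was 0.248, for Igtp. In all, 2 genes (0.0149%) passed the threshold of 0.05 on adjusted p used throughout.

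The 6 members without a split were compared in 15 pairs across the 92 animals. All 15 rank correlations were positive, from 0.167 (Irgm1 with Ifit3) to 0.490 (Stat2 with Irf7), with a median rho of 0.251 and a median r of 0.285. The same 6 genes gave a median rho of -0.0032 with the 13433 other genes, of which 48.9% were positive, and the 5th and 95th percentiles were -0.191 and 0.200. The points share their library and their scaling, and the group was chosen for this pattern, so no p is given.

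Stat2 with Irf7 was the closest pair, at r = 0.563 and rho = 0.490. Without the 2 animals farthest from the median of Stat2, r was 0.493, and within the 5 title-number runs it ranged from 0.108 to 0.872. Stat2 was also in the next closest pair by rho, with Gbp7 (rho 0.321, r 0.452, and 0.348 without 2 animals), where r within runs ranged from -0.0317 to 0.748. Irf7 with Ifit3 followed at rho 0.309 (r 0.321), then Igtp with Stat2 and Igtp with Irf7, both at 0.304, and Irgm1 with Stat2 at 0.295. Gbp7 with Igtp had r of 0.247, which became 0.0802 without 2 animals. The shared level was therefore positive in every pair and modest in size, and it was uneven between runs.

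Gvin1 was compared only within its upper set of 77 animals. It went with Igtp (r 0.367, rho 0.402), and less with Irf7 (rho 0.262), Gbp7 (0.181) and Stat2 (0.180), while Irgm1 and Ifit3 gave -0.0277 and -0.0165. Without 2 animals, r with Igtp was 0.319, and within runs it ranged from -0.0836 to 0.577. Gm43302 stood apart from the shared pattern: in its 87 animals, 5 of 7 coefficients were negative, from -0.257 with Stat2 to 0.122 with Gbp7. Between Gvin1 and Gm43302 rho was 0.0352 over the 72 animals in both upper sets.

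Of the 92 mice, 33 were among the 10 highest for at least 1 of the 6 unsplit genes, 13 for at least 2, 7 for at least 3, 4 for at least 4 and 3 for 5 of them. No animal was among the 10 highest for all 6.

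**Figure D3:**
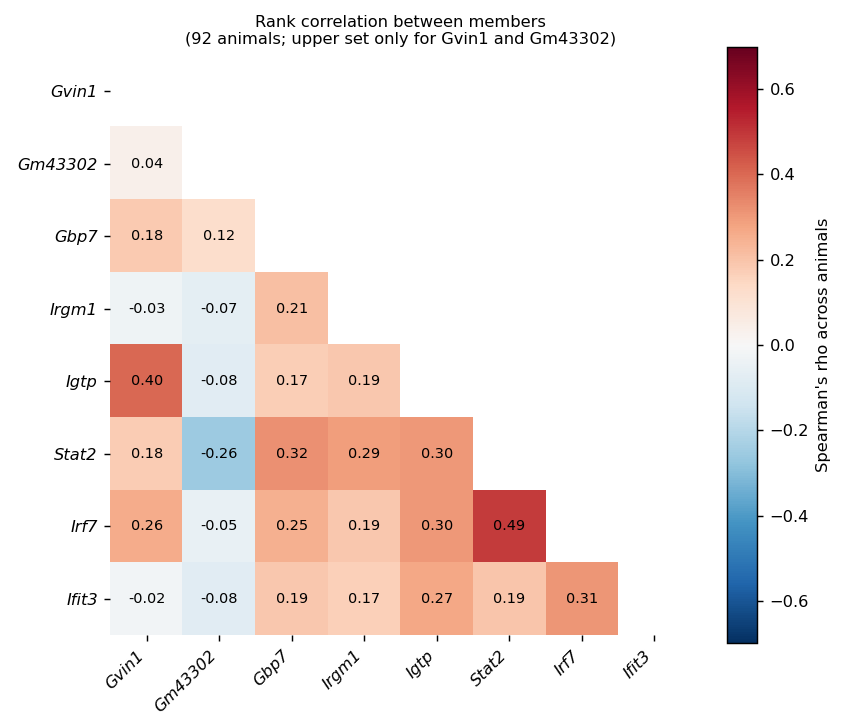
Spearman's rho between each pair of members (colour and printed value), over 92 animals for the 6 unsplit genes and over the upper sets for Gvin1 (77 animals) and Gm43302 (87 animals). The pairs among Gbp7, Irgm1, Igtp, Stat2, Irf7 and Ifit3 are all positive, and the column of Gm43302 is mostly at or below 0.

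The genes whose pattern was most like each member, by the absolute value of Spearman's rho over the 92 animals among genes with a mean of at least 1, were largely interferon genes. The 3 for each member came to 23 distinct genes, since Oasl2 was named for both Stat2 and Irf7, and 15 of the 23 were on the interferon lists, which hold 89 of the 11116 genes eligible. Members and lists were chosen with earlier results of these data known, so this count is a description and no test. It includes Gbp10, Irgm2 and Ifit3b, which share sequence with Gm43302, Igtp and Ifit3. Irf7 was most like Oasl2 (0.633), Ifitm3 (0.525) and Oas2 (0.519), an oligoadenylate synthetase relative, a membrane protein that blocks virus entry and an oligoadenylate synthetase. Stat2 was most like Cd274, which encodes the checkpoint ligand PD-L1 (0.554), Gbp5 (0.539) and Oasl2 (0.525). Igtp was most like Irgm2 (0.812), Iigp1 (0.601), an effector immunity-related GTPase, and Irf9 (0.515), the DNA-binding partner of Stat2. Genes like Gbp7 included H2-T24 (0.478) and Ttc23 (0.477). Ifit3 was most like Ifit3b (0.722), Ifit2 (0.423) and Gbp2 (0.399). Irgm1 had the weakest partners, namely 9930111J21Rik2 (0.405), Psme2 (0.378) and Ces1d (0.366).

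For the members with a split, the closest genes included some on the same chromosome, as they did for Irgm1, Igtp, Irf7 and Ifit3. Irgm2 overlaps Igtp, 9930111J21Rik2 lies 0.144 Mb from Irgm1 and Ifitm3 lies 0.252 Mb from Irf7. Ifit3b and Ifit2 lie 0.0192 and 0.00711 Mb from Ifit3. Gvin1 was most like Tgtp2, a T-cell-specific GTPase of the immunity-related family (0.521 over 92 animals, 0.531 in the 77), Nlrp10 (0.455, and 0.285 in the 77), which lies 2.71 Mb away on chromosome 7, and Plekhj1 (-0.449). Gm43302 was most like Gbp10 (0.873), Pigg (0.510, and 0.457 in the 87) and Idua (-0.469, and -0.414 in the 87). Pigg and Idua lie 3.02 and 3.37 Mb away on chromosome 5. Of the 3 annotated genes on each side of Gvin1, all pseudogenes, none was in the table. The nearest genes of the table on either side of Gvin1 gave rho from -0.268 (Tpp1) to 0.209 (Dchs1) over the 92 animals.

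Other genes were then tested for their slope on Irf7, as the log2 change per SD of Irf7 across animals (limma, Benjamini-Hochberg over 13440 genes). Of all genes 1.33% passed, 1.29% rising and 0.0372% (5 genes) falling. Of those that passed, 50 (27.9%) were on the interferon lists, whose genes make up 0.766% of all genes tested. Irf7 and the lists were chosen with earlier results of these data known. The shares and p-values of the list genes therefore describe these animals and are no independent support for a shared level. Interferon-stimulated genes rose in 27 of 41 and fell in 0, with a median slope of 0.22 against -0.004 for all genes. Oasl2 ran from 0.36 through 1.75 to 4.15 log2 units and rose by 0.51 ± 0.05 (SE; adjusted p = 1.77e-11). Ifit1, an RNA-binding relative of Ifit3, rose by 0.52 ± 0.06 (adjusted p = 2.9e-09) and Oas2 by 0.45 ± 0.06 (adjusted p = 1.96e-07). Rtp4 rose by 0.36 and Ifitm3 by 0.22.

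The other interferon-inducible GTPases rose with Irf7 in 9 of 15, with a median slope of 0.28. Ifi47, an immunity-related GTPase, rose by 0.50 ± 0.07 (adjusted p = 1.73e-06), Gbp3 by 0.39 ± 0.07 (adjusted p = 0.000102) and Gbp2 by 0.28 ± 0.05 (adjusted p = 3.54e-05). Tgtp2 had the steepest slope at 0.69 ± 0.18 (adjusted p = 0.0222), and its values ran from -3.91 to 5.67. Without the 2 animals farthest from the median of Irf7, 4 of the 15 passed and 11 had an unadjusted p below 0.05, as with all animals. The calls for Tgtp1, Tgtp2 and Gbp9 were among those lost, with slopes of 0.43, 0.64 and 0.16. Tgtp1 also did not pass with the title-number run as a covariate (0.49). Gbp10, the partner of Gm43302, had a slope of -0.03 (adjusted p = 0.973).

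Antigen presentation genes rose with Irf7 in 11 of 21, with a median slope of 0.18. Psmb9, a subunit of the immunoproteasome that cuts peptides for display, rose by 0.34 ± 0.06 (adjusted p = 6.84e-05) and Psmb8 by 0.27 ± 0.05 (adjusted p = 0.000603). H2-K1, a class I heavy chain, rose by 0.25 ± 0.05 (adjusted p = 0.00133), and B2m, its light chain, by 0.17 ± 0.04 (adjusted p = 0.00164). Receptor and signalling genes rose in 3 of 26, among them Irf9 (0.16 ± 0.03, adjusted p = 0.00164) and Irf1 (0.14 ± 0.03, adjusted p = 0.00592), of which Irf1 did not pass without the 2 farthest animals (0.11). The sensors Sting1 and Tlr3 gave slopes of 0.17 and 0.12 that did not pass (adjusted p = 0.0656 and 0.2). The 5 genes that fell had shallow slopes, from -0.09 for Nudcd3 to -0.05 for Psma2, and none passed without the 2 farthest animals, where Nudcd3 stood at -0.07 and Psma2 at -0.03. Gart and Psma2 also did not pass with the title-number run as a covariate (-0.07 and -0.05). Psma2 and Psmc3 (-0.07) encode constitutive proteasome subunits.

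Some cell type markers moved with the same predictor, mostly those of macrophages. Of 10 macrophage markers, 8 rose with Irf7 (median slope 0.28), including the complement genes C1qa (0.25), C1qb (0.27) and C1qc (0.28). In contrast, 0 of 8 endothelial and 0 of 9 muscle fibre markers passed in limma, and 0 of either had an unadjusted p below 0.05. Of 6 fibroblast markers, 1 rose (Pdgfra, 0.12 ± 0.03, adjusted p = 0.0172), all 6 had positive slopes (median 0.14), and 5 had an unadjusted p below 0.05. Of 5 adipocyte markers, 1 rose, Cfd, by 0.41 ± 0.11 (adjusted p = 0.0391). Cfd did not pass without the 2 farthest animals (0.39), with each sample centred on its median (0.40), with 3 principal components (0.23) or with the marker scores (0.26). With the macrophage and endothelial marker scores as covariates, only 23 genes passed. Then 11 of 41 interferon-stimulated genes, 4 of 15 GTPases, 1 of 21 antigen presentation genes (Psmb9) and 1 of 26 signalling genes rose. At an unadjusted p below 0.05 there were 28 of 41, 10 of 15 and 12 of 21 in the first 3 lists, against 33, 11 and 18 without these covariates. Irf9 and Irf1 did not pass, with slopes of 0.12 and 0.11.

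Slopes on Igtp were fitted in the same way, and the same limit holds, since Igtp is a member too. Of 13440 genes, 137 (1.02%) passed, 119 rising (0.885%) and 18 falling (0.134%). The other GTPases rose in 10 of 15, with a median slope of 0.35 against -0.002 for all genes. Irgm2, which shares sequence with Igtp, rose by 0.64 ± 0.04 (adjusted p = 5.84e-23). Iigp1 ran from 0.94 through 2.91 to 5.79 and rose by 0.60 ± 0.07 (adjusted p = 5.65e-09). Tgtp1 rose by 0.78 ± 0.12 (adjusted p = 7.62e-06), Tgtp2 by 0.94 ± 0.17 (adjusted p = 0.000202) and Gm12185 by 0.68 ± 0.12 (adjusted p = 0.000272). The called Irgm2, Tgtp1, Tgtp2, Gm12185 and Ifi47 lie on chromosome 11, as Igtp does. Gm12185 (chr11:48904656-48992226) overlaps Tgtp1 (chr11:48985327-48994172). These calls may therefore not be independent of each other, which was not tested. Gbp10 and 9930111J21Rik2 had negative slopes that did not pass, -0.29 and -0.36 (adjusted p = 0.575 and 0.382).

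Antigen presentation genes rose with Igtp in 14 of 21, with a median slope of 0.26. Tap1, the peptide transporter, rose by 0.45 ± 0.06 (adjusted p = 1.06e-06), H2-T23 by 0.32 ± 0.04 (adjusted p = 5.65e-09) and Nlrc5, the activator of class I genes, by 0.49 ± 0.09 (adjusted p = 0.000315). All 5 class II genes rose, among them Ciita, their activator, by 0.27 ± 0.06 (adjusted p = 0.00534). Interferon-stimulated genes rose in 12 of 41 (median 0.15), led by Bst2, which tethers virus particles, at 0.31 ± 0.05 (adjusted p = 3.5e-05) and Xaf1 at 0.24 ± 0.04 (adjusted p = 0.000349). Signalling genes rose in 3 of 26, with Irf9 (0.19 ± 0.03, adjusted p = 0.000115) and Irf1 (0.12 ± 0.03, adjusted p = 0.032) among them. Macrophage markers rose in 3 of 10, with 10 of 10 slopes positive (median 0.23) and 9 at an unadjusted p below 0.05. Fibroblast markers passed in 0 of 6, with 6 of 6 slopes positive and 3 at an unadjusted p below 0.05. Endothelial markers passed in 0 of 8 and muscle fibre markers in 0 of 9 (limma; 1 and 0 passed an unadjusted p of 0.05).

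The GTPase calls with Igtp stayed at 10 of 15 without the 2 animals farthest from the median of Igtp, where Iigp1 had a slope of 0.56 and Irgm2 of 0.59. Without those animals 29 genes passed in place of 137, and the counts became 3 of 41 for interferon-stimulated genes and 7 of 21 for antigen presentation, of which 24 and 19 had an unadjusted p below 0.05 (28 and 19 with all animals). Irf1 did not pass, with a slope of 0.11. The steepest rise outside the lists, that of the extraocular myosin Myh13 (1.04 ± 0.25, adjusted p = 0.0162), went from a call to no call with a slope of 0.61. Myh13 also lies on chromosome 11, at chr11:67321658-67371586. The steepest falls were Dysf (-0.26), Zfp72 (-0.14), Dagla (-0.12), Mfn1 (-0.11) and Hif1an (-0.10), none of which passed without those animals, with slopes of -0.19, -0.05, -0.11, -0.08 and -0.09 in that order. With the macrophage and endothelial scores as covariates, 30 genes passed, with 3 of 41 and 7 of 21 in those lists and 10 of 15 GTPases. Of the 2 lists, 21 of 41 and 18 of 21 then had an unadjusted p below 0.05. Bst2 passed with a slope of 0.27, while Ifitm3, Adar and Irf1 did not, with slopes that went from 0.17 to 0.11, 0.17 to 0.13 and 0.12 to 0.11. Irf1, Dysf, Zfp72 and Hif1an also did not pass with the title-number run as a covariate, with slopes of 0.12, -0.24, -0.13 and -0.10.

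**Figure D4:**
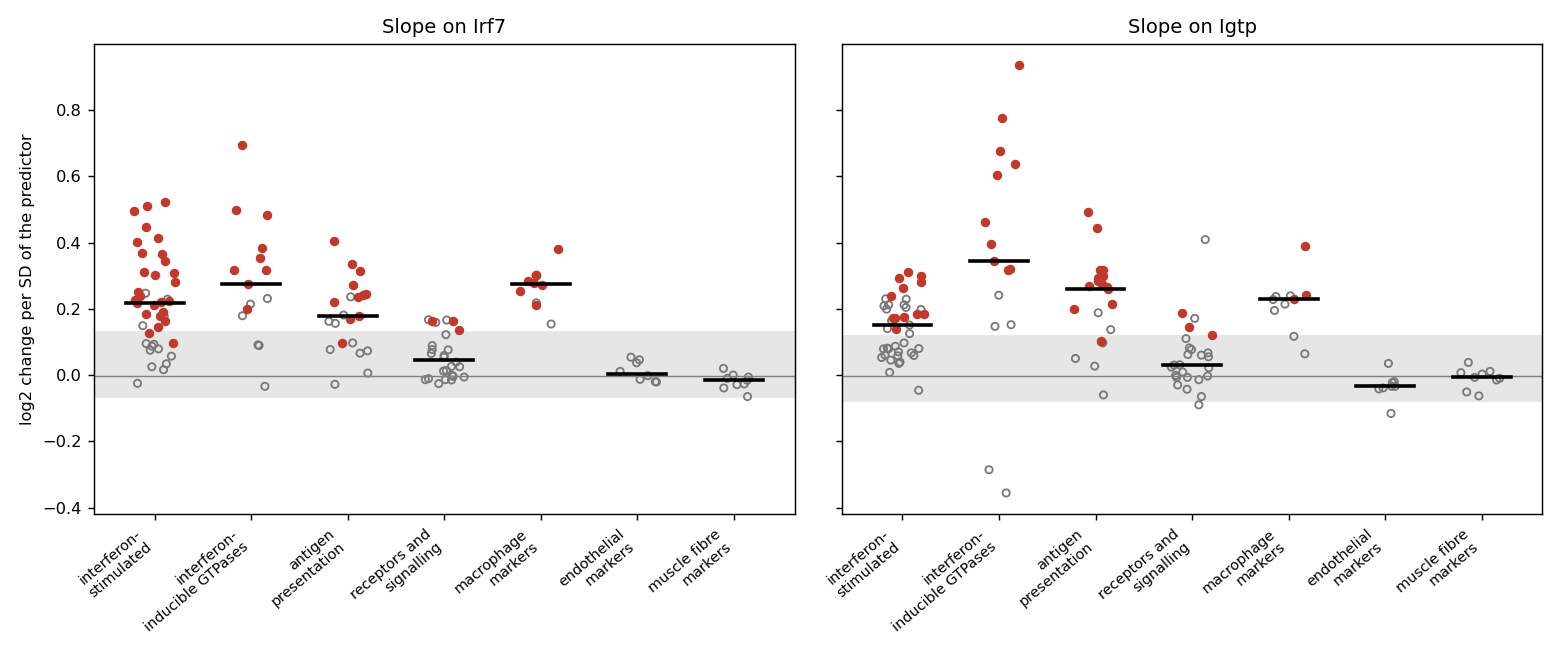
Slope of each gene of 7 lists on Irf7 (left) and on Igtp (right), as log2 change per SD of the predictor over 92 mice. Filled red points passed an adjusted p of 0.05 (limma), open points did not, black bars are list medians and the grey band spans the 5th to 95th percentile of all genes. Most interferon-stimulated, GTPase and antigen presentation genes and macrophage markers lie above the band, whereas most receptor and signalling genes and the endothelial and muscle fibre markers lie within or near it.

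Whether a gene followed Irf7 more than Igtp was tested as the difference between both slopes in a joint model. Of 13439 genes, 3 (0.0223%) passed, all with the steeper slope on Igtp (1096 genes at an unadjusted p below 0.05). The called genes were Irgm2 (-0.66 ± 0.07, adjusted p = 1.26e-10), Mrpl22 (-0.15 ± 0.03, adjusted p = 0.0236) and Cnot8 (-0.10 ± 0.02, adjusted p = 0.0333). All 3 lie beside Igtp on chromosome 11, Irgm2 at chr11:58199618-58222782, Mrpl22 at chr11:58171661-58179565 and Cnot8 at chr11:58104153-58118594. Mrpl22 encodes a mitochondrial ribosomal protein and Cnot8 a deadenylase subunit, and neither is on an interferon list. Without the 2 farthest animals the differences were -0.12 for Mrpl22 and -0.10 for Cnot8, which did not pass, and -0.64 for Irgm2, which did. Cnot8 also did not pass with the title-number run as a covariate (-0.10, adjusted p = 0.057).

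No interferon-stimulated gene passed the limma test of the difference (12 at an unadjusted p below 0.05), although 34 of 41 had a steeper slope on Irf7 (median difference 0.09, against 0.002 for all genes). Of the antigen presentation genes, 4 of 21 had a steeper slope on Irf7 (median difference -0.05) and 0 passed (1 unadjusted). The different counts of the lists with Irf7 and with Igtp (27 and 12 of 41, 11 and 14 of 21) are therefore not shown to differ gene by gene. For the members themselves, the slopes on Irf7 and on Igtp stood side by side at 0.26 and 0.19 for Stat2, 0.13 and 0.10 for Gbp7, 0.07 and 0.08 for Irgm1, and 0.43 and 0.26 for Ifit3. Gvin1 gave 0.434 ± 0.249 and 0.491 ± 0.248 (SE), and Gm43302 0.078 ± 0.216 and -0.25 ± 0.215. The fits of both genes used all animals, including their lower sets, and none of their slopes passed (limma adjusted p of 0.394 to 0.938). Without the 2 animals farthest from the median of Igtp, the slope on Igtp was 0.047 for Gm43302 and 0.471 for Gvin1.

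The members were next tested against measures that had no part in choosing them. With the macrophage score (the mean of the 10 standardised markers), Irf7 rose by 0.33 ± 0.07 per SD (limma adjusted p = 0.000147) and Igtp by 0.23 ± 0.06 (adjusted p = 0.00438). Those are 2 of 8 members, where 22% of all 13431 genes passed. Stat2 had a slope of 0.12 ± 0.05 and did not pass (adjusted p = 0.0521). The slopes of Gbp7 (0.01), Irgm1 (0.03), Ifit3 (0.18 ± 0.14), Gvin1 (0.15 ± 0.25) and Gm43302 (-0.20 ± 0.22) did not pass either, with adjusted p of 0.378 to 0.922. With 3 principal components as covariates the slope of Igtp was -0.04 (adjusted p = 0.97) and that of Irf7 0.47 ± 0.20 (adjusted p = 0.336). In rank terms, Irf7 followed the macrophage score at 0.448 and Gbp7 at 0.00274.

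The interferon lists were also read against the macrophage score. Interferon-stimulated genes rose with it in 27 of 41 (median slope 0.15), antigen presentation genes in 16 of 21 (0.18) and signalling genes in 15 of 26 (0.09), with 2 falling. Of the 15 GTPases, Gbp2, Ifi47 and Irgm2 rose, and the median slope was 0.19. Differences between the lists were not tested. Of all genes 11.6% rose with the macrophage score and 10.4% fell. Fibroblast markers rose with it in 6 of 6 (median slope 0.31), and muscle fibre markers fell in 5 of 9 (-0.07). Endothelial markers passed in 0 of 8 and adipocyte markers rose in 1 of 5. The slopes of the lists therefore cannot be assigned to macrophages alone.

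No member passed with the endothelial score, where 9.58% of 13433 genes did, 6.14% rising and 3.44% falling. The smallest adjusted p was 0.326, for Igtp at -0.11 ± 0.07, and 0 members had an unadjusted p below 0.05. No member passed with Cers2 either, against 7.96% of 13440 genes. The nearest was Gm43302 with a slope of -0.44 ± 0.21 per SD of Cers2 (unadjusted p = 0.0424, adjusted p = 0.191), and within its upper set of 87 animals r was -0.0988. The slopes of Irf7 and Stat2 on Cers2 were 0.13 ± 0.08 and 0.08 ± 0.05. Of the lists, antigen presentation genes rose with Cers2 in 8 of 21, where 4.08% of all genes rose, led by Tapbp (0.10 ± 0.02, adjusted p = 0.00404), which holds class I chains at the peptide transporter. Interferon-stimulated genes rose in 2 of 41 and fell in 0, and receptor and signalling genes rose in 1 of 26 and fell in 3. The other interferon-inducible GTPases passed in 0 of 15, with a smallest adjusted p of 0.198 (1 at an unadjusted p below 0.05). Macrophage markers moved with Cers2 as well, with 8 of 10 rising (median slope 0.21), as did fibroblast markers, with 5 of 6 rising (0.13). With the marker scores of macrophages and endothelium as covariates 109 genes passed in place of 1070. With 3 principal components 2 did.

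**Figure D5:**
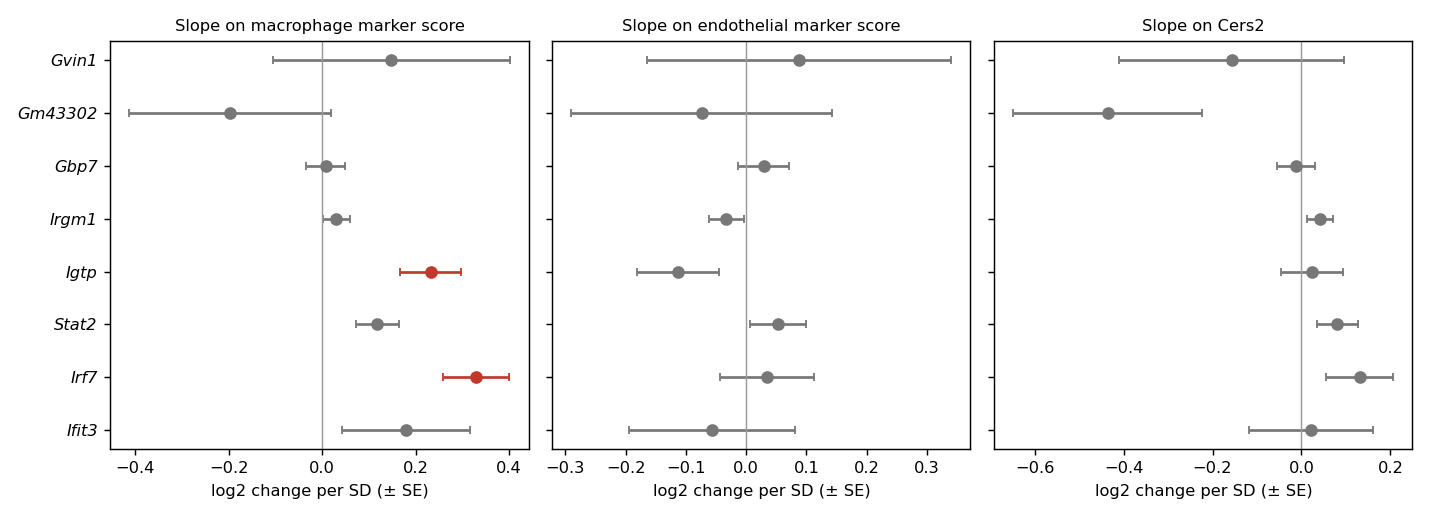
Slope of each member on the macrophage score, the endothelial score and Cers2, as log2 change per SD of the predictor (horizontal axis), with bars of 1 SE over 92 mice. Red marks slopes that passed an adjusted p of 0.05 (limma): Irf7 and Igtp on the macrophage score, and none in the other panels.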

How the data were processed

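The authors deposited log2 expression values of 92 quadriceps samples in 1 table. The submitters' processing notes name bcl2fastq, MultiQC, kallisto 0.50.1, edgeR and the build mm10. Their settings, the scaling and any filter are not given in the sources used here. After 15 repeated lines were removed, 13441 genes remained. The labels give 1 group, with each title a separate animal, so animals were compared by slopes in limma 3.58.1 (R 4.3.3), with moderated variances that follow a trend on the mean, and p-values adjusted by Benjamini-Hochberg over every gene in the fit. Predictors were standardised. The method was tested on simulated data, with each gene drawn independently from a normal distribution. Those data lack the correlation between genes and the low sets of the real values, so the test does not cover them. Shared 31-mers came from GENCODE M21 transcripts, whose coordinates are GRCm38. A split is a step of at least 1 with 5 or more animals on each side.

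Members and lists were chosen with earlier results of these data known. The lists held 54 interferon-stimulated genes (41 in the table), 32 GTPases (15), 30 receptor and signalling genes (26) and 21 antigen presentation genes (21). Named genes were the members, the 5 steepest rises and 5 steepest falls of each fit (mean of at least 1), the 5 smallest adjusted p of each list, the 3 most alike for each member, and neighbours of Gvin1 and Gm43302. Exceptions chosen after their values were seen were the called genes Mrpl22 and Cnot8, Nlrc5, Ciita, C1qa, C1qb, C1qc, Pdgfra, Gbp10, 9930111J21Rik2, Tapbp and the named sequence partners. Alternatives were a pseudocount of 1, a filter on means under 1, title-number runs, 3 principal components or marker scores as covariates, median centring and leaving out 2 animals. Summing genes that share sequence and leaving out class II genes or Irgm2 were added after seeing the data. Some genes that the rule names are not reported here.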

Additional observations from a re-analysis of the deposited data

How the results depend on the processing

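The median correlation of 0.251 between members stayed within its range in every alternative run. Of the list, split and genome-wide values, 81 kept within their limits and 36 moved. With 3 principal components as covariates, counts of genes called became 32 for Irf7 and fell from 137 to 33 for Igtp, 3 to 1 for their difference, 2958 to 109 for the macrophage score, 1287 to 839 for the endothelial score, 1070 to 2 for Cers2 and 2 to 0 for the title-number runs (776 at an unadjusted p under 0.05). The list counts with Irf7 were then 14 interferon-stimulated, 4 GTPase, 1 signalling and 2 antigen presentation genes, and with Igtp 3 interferon-stimulated and 7 antigen presentation genes. The slope of Igtp on the macrophage score turned from 0.232 to -0.043. With the marker scores as covariates, 23 genes were called for Irf7, 30 for Igtp, 1 for their difference and 109 for Cers2. The lists then held 11, 4, 1 and 1 calls with Irf7, in the same order, and 3 and 7 with Igtp. Without the 2 farthest animals, 29 genes were called for Igtp and 1 for the difference, with 4 GTPases for Irf7, and 3 interferon-stimulated and 7 antigen presentation genes for Igtp. Leaving out genes with a mean under 1 gave 90 for Igtp, a pseudocount of 1 gave 5 for the difference, and centring gave 1 for the runs. Without class II genes, 9 of 16 antigen presentation genes rose with Igtp. The splits of Gvin1 (15) and Gm43302 (5) became 0 and 0 with a pseudocount of 1, which compresses low values and left steps of 0.96 and 0.45, and for Gm43302 the lowest component of the mixture held 12 animals, a broad component and not a low set, with 0 in the sum with Gbp10 and Gbp6, which Gbp6 keeps above the floor by construction. Centring turned the share of calls that rose from 51.3% to 27.2% for Cers2, and from 52.9% to 37.2% for the macrophage score. For the single genes named, 314 values kept their call, 321 stayed without a call, 96 lost it, 3 gained it and 1 turned. The cause of these changes was not tested, beyond fewer animals or genes where some were left out.

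No paired analysis was possible because the labels give 1 group. Leaving out replicates in turn was not run with 92 animals. The planned slope on T and NK markers was not run, since 0 of 19 were among the genes analysed, and the covariate score therefore used macrophage and endothelial markers. Depth is unknown, so values near -3.86 cannot be given a counting error.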
